A study of Mus musculus with 37 samples.

Results

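Histamine is made, stored, broken down and sensed by the products of a small set of genes, and 5 of them are described here across bone marrow and spleen of socially defeated mice: Hdc, Slc18a2, Hnmt, Hrh1 and Hrh2. They were taken by gene symbol from the 35885 genes of the deposited table. The set was proposed because Hdc was 1 of the few genes higher in spleen early in the stress series, so the members were selected on the calls in spleen after 4 defeats against control. Those values and calls are given below as a description of how Hdc was chosen and support nothing. Of the 5 genes, 4 reached the level needed for testing in both tissues, and Hrh1 stayed below it.

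The mice were wild-type animals of the C57BL/6N strain. Controls were not defeated, and the other groups went through social defeat, repeated confrontation with an aggressive opponent, 1, 4 or 10 times at a rate of 1 per day. The last group was defeated 10 times and then left alone for 1 week (the rested group). Cells flushed from the femur and whole spleen gave 37 libraries of polyadenylated RNA: 3 control, 4 once defeated, 3 defeated 4 times, 5 defeated 10 times and 4 rested in marrow, and 4, 2, 2, 6 and 4 in the same order in spleen.

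Histidine decarboxylase, encoded by Hdc, removes the carboxyl group of histidine and is the only enzyme known to make histamine in mammals. Basophils and mast cells store histamine in granules, where the vesicular monoamine transporter encoded by Slc18a2 loads it, and myeloid cells including neutrophil precursors can make it without a comparable store. Inside cells histamine is methylated by histamine N-methyltransferase (Hnmt), outside them it is oxidised by diamine oxidase (Aoc1), and it signals through G protein-coupled receptors, of which the H1 receptor (Hrh1) couples to calcium release and the H2 receptor (Hrh2) to cyclic AMP.

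The sequences before the start sites of Hdc and Hrh2 are shown because both genes rose in marrow after 10 defeats and stood on opposite sides of control in spleen. The lower spleen value of Hrh2 was not called without the 5 spleen libraries set apart below (-0.21, limma, adjusted p = 0.494). Each is the run of 250 bases before the RefSeq start of the gene (build GRCm38.p6), written 5′ to 3′ on the gene's strand, with matches to the searched motifs in capitals.
Hdc, chr2:126618679-126618928, minus strand: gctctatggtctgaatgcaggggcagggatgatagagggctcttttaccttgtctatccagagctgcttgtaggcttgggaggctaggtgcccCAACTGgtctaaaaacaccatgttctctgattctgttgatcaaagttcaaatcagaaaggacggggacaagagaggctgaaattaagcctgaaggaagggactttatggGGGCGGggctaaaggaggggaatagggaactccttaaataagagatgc
Hrh2, chr13:54191879-54192128, plus strand: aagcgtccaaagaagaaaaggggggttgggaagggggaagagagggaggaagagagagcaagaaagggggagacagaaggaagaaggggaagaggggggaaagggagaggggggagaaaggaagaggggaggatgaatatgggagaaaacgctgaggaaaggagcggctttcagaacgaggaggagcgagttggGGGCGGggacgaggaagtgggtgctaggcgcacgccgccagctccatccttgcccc
The motifs, searched on both strands, were a GATA site (AGATAA or TGATAA), an E-box (CANNTG), a C/EBP site (TTGCNNAA), a GC box (GGGCGG) and an AP-1 site (TGANTCA). The capitals in the Hdc run are an E-box 157 bases and a GC box 48 bases before the start, and the capitals in the Hrh2 run are a GC box 56 bases before it. An E-box was present in 66.2% and a GC box in 32.7% of 32851 RefSeq windows of the same length. No GATA, C/EBP or AP-1 letters were found in either run, nor in that of Hnmt, which held 2 E-boxes. The other members did hold some. Slc18a2 had a GATA site 230 bases before its start. The 4 runs of Hrh1 held GATA sites at 245, 200 and 142 bases, C/EBP sites at 155 and 163, and an AP-1 site at 216. GATA, C/EBP and AP-1 letters occurred in 16.6%, 9.56% and 6.75% of all windows. The Hrh2 run shown is the first of 2 that overlap. Hdc lies on chromosome 2 (126593667 to 126619299, minus strand, GRCm38, GENCODE M21) and its run lies in an intron of a longer non-coding transcript of the gene. Hnmt lies on the same chromosome (24002910 to 24049394, minus strand), Hrh1 on chromosome 6 (114397936 to 114483296, plus strand), Hrh2 on chromosome 13 (54192129 to 54236180, plus strand) and Slc18a2 on chromosome 19 (59260896 to 59296012, plus strand). Hrh2 overlaps the opposite-strand gene Gm16578 and Slc18a2 overlaps Gm29261, and the sources used here do not state whether the authors' quantification used strand.

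Values below are the authors' scaled abundances, which behave as levels per transcript length, and differences are log2 differences of value + 1 with standard errors, a scale that understates changes of low genes. Depth estimated from the steps between low values was 3.63 to 35.0 M reads per library (median 11.6 M). In spleen 5 libraries stood apart by a steep fall of values with transcript length: D6, D7, D9 and D10 of the 10-defeat group and D2 of the rested group, with slopes of -0.775 to -0.593 against -0.366 to 0.635 in the other 13. Spleen results are therefore given with and without them where they bear on a call, except for 10 defeats against 1 defeat. In marrow the haemoglobin genes made up 38.7% to 44.3% of the values of controls and 11.1% to 26.8% after 10 defeats, and in spleen 10.6% to 23.1% of controls and 11.5% to 52.0% after 10 defeats. In bulk tissue, fewer cells of a type and less RNA per cell cannot be told apart.

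**Figure D1:**
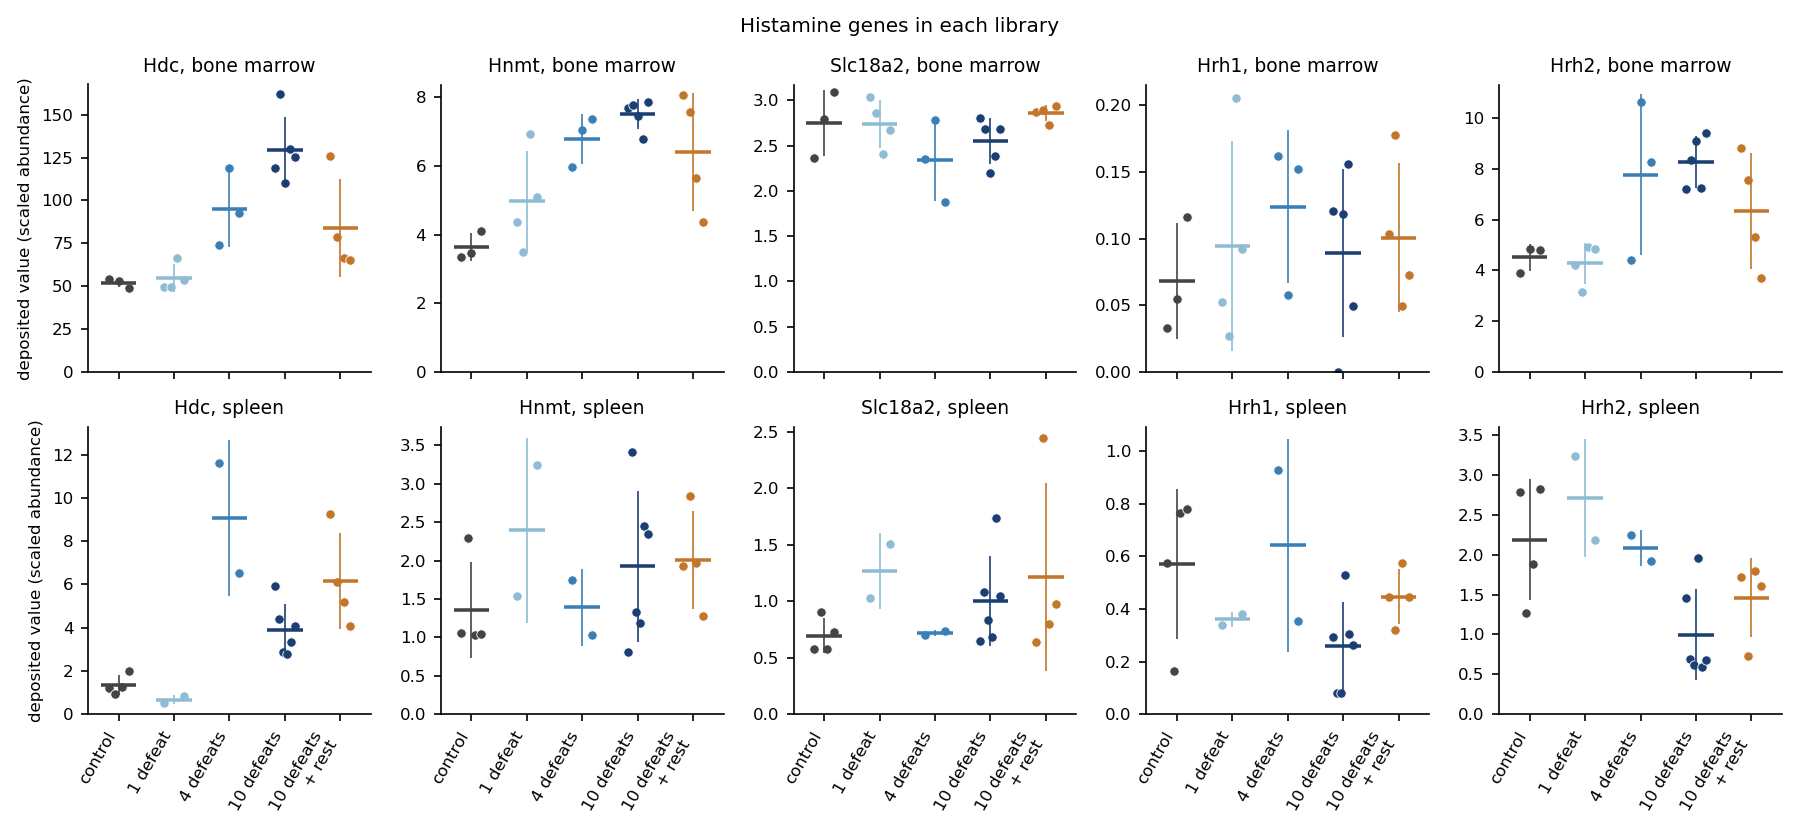
Deposited values (linear axes from 0) of the 5 histamine genes, 1 point per library, in bone marrow (top) and spleen (bottom) by group; horizontal lines are group means and vertical lines 1 SD. Hdc in marrow stays at 49.3 to 66.7 through 1 defeat and lies at 110.3 to 162 after 10 defeats, while Hrh1 stays below 1 in every library.

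Hdc, the gene of histamine synthesis, was the most abundant of the 5 in marrow and rose with repeated defeat. Its marrow values were 54.0, 53.0 and 49.3 in controls, 49.4, 49.6, 66.7 and 53.8 after 1 defeat, and 74.1, 119 and 92.7 after 4 defeats. After 10 defeats they were 119, 162, 110.3, 129.7 and 125, and in the rested group 126, 78.9, 66.6 and 65.4. All libraries after 4 or 10 defeats lay above all controls and all libraries after 1 defeat, and the rested group lay above the controls but overlapped the 1-defeat and 4-defeat groups and, through library D1, the 10-defeat group.

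Against controls the marrow difference of Hdc was 0.06 ± 0.20 after 1 defeat (limma, adjusted p = 0.971), 0.83 ± 0.21 after 4 defeats (adjusted p = 0.0140) and 1.28 ± 0.19 after 10 defeats (adjusted p = 0.000176). The shares of all tested genes called in these comparisons were 0.00804%, 20% and 45.8%. The call after 4 defeats was lost without control C4 (0.79, adjusted p = 0.0605) or library D12 (0.66, adjusted p = 0.0830). Hdc after 10 defeats also exceeded 1 defeat by 1.22 ± 0.18 (adjusted p = 0.000192), where 38.9% of genes were called, whereas its difference from 4 defeats was 0.45 ± 0.19 (adjusted p = 0.197; 2.44% called). From 10 defeats to rest Hdc fell by 0.65 ± 0.18 (adjusted p = 0.0161; 21.7% of genes called), a call lost without rested library D3 (-0.56, adjusted p = 0.0571) or D8 (-0.55, adjusted p = 0.0546) and with libraries rescaled to equal totals (-0.44, adjusted p = 0.116). The rested group stood 0.63 ± 0.20 above controls (adjusted p = 0.212). By limma 0% of the 12442 genes passed in that comparison, while 1768 had an unadjusted p under 0.05, and with library weights 1050 genes were called higher and 1481 lower, among them Hdc (0.42, adjusted p = 0.0124) and Hnmt (0.57, adjusted p = 0.00143).

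In spleen Hdc was low, and its values in controls were 1.20, 0.917, 1.24 and 1.99. After 1 defeat they were 0.510 and 0.819, from an estimated 11.2 to 15.6 reads, and after 4 defeats 11.6 and 6.52. Both libraries after 4 defeats lay above every other group's median, and both after 1 defeat lay below all controls. The difference from control was -0.48 ± 0.30 after 1 defeat (not tested). After 4 defeats, the comparison that chose the gene, it was 2.08 ± 0.30. After 4 defeats Hdc was 1 of only 6 genes past the threshold (0.043% of those tested), all higher: Dhrs9 (1.41), Phlda2 (1.61), Mrgpra2b (1.91), Hdc, Mmp8 (4.12), a collagenase of neutrophil granules, and Lcn2 (4.38), the iron-binding neutrophil protein lipocalin 2. Asns, Epdr1 and Recql4 lay just outside it, at differences of 2.03, 1.41 and 1.14. Without the 5 libraries of steep slope, none of which belongs to these groups, 148 genes were past the threshold higher and 97 lower.

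After 10 defeats the spleen values of Hdc were 5.94, 4.39, 2.89, 2.76, 3.32 and 4.09, and in the rested group they were 9.24, 6.12, 5.20 and 4.08. Every library of both groups lay above every control (highest 1.99) and the 2 groups overlapped each other. The differences from control were 1.05 ± 0.23 after 10 defeats (limma, adjusted p = 0.00173; 16.8% of genes called higher and 41.9% lower) and 1.58 ± 0.25 after rest (adjusted p = 0.00268; 7.26% called). These comparisons share their 4 controls with the one that chose Hdc. Without the 5 libraries of steep slope they were 1.15 ± 0.32 (adjusted p = 0.0269) and 1.57 ± 0.29 (adjusted p = 0.00681), and with libraries rescaled to equal totals they were 0.57 (adjusted p = 0.176) and 1.16 (adjusted p = 0.101). Against 1 defeat, a comparison that does not use those controls, the 10-defeat group was higher by 1.53 ± 0.29 (limma, adjusted p = 0.000713, 51.6% called). No alternative fit is given for this comparison. Its 1-defeat libraries D15 and D16 had length slopes of 0.56 and 0.64 and an estimated 15.6 and 11.2 reads of Hdc. The slopes of D6, D7, D9 and D10 were -0.65 to -0.59. The step from 10 defeats to rest was 0.53 ± 0.23 (adjusted p = 0.197; 0.567% called).

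The tissues differed in the level of Hdc and in its course after stress ended. Control spleen was lower than control marrow by 4.52 on the log2 scale (-4.52 ± 0.24, adjusted p = 1.64e-15, in a limma model of all 37 libraries). The other tested members were lower in control spleen as well, Hnmt by -1.01 ± 0.25, Hrh2 by -0.82 ± 0.26 and Slc18a2 by -1.14 ± 0.18, so 4 of 4 were called beside 19.2% of all genes called lower; Hrh2 lost this call when libraries were rescaled to equal totals (-0.65, adjusted p = 0.174). The effect of 10 defeats on Hdc did not pass a test of difference between tissues (spleen minus marrow -0.23 ± 0.31, adjusted p = 0.562). The step from 10 defeats to rest did, at 1.18 ± 0.29 (adjusted p = 0.0109; 10.2% of genes called), with Hdc lower after rest in marrow and not in spleen. That call was lost with quantile normalization (0.86, adjusted p = 0.0881), with equal totals (1.02, adjusted p = 0.240) and with only the compared groups in the model (1.18, adjusted p = 0.0535); without the libraries of steep slope the value was 1.08 (adjusted p = 0.0498).

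**Figure D2:**
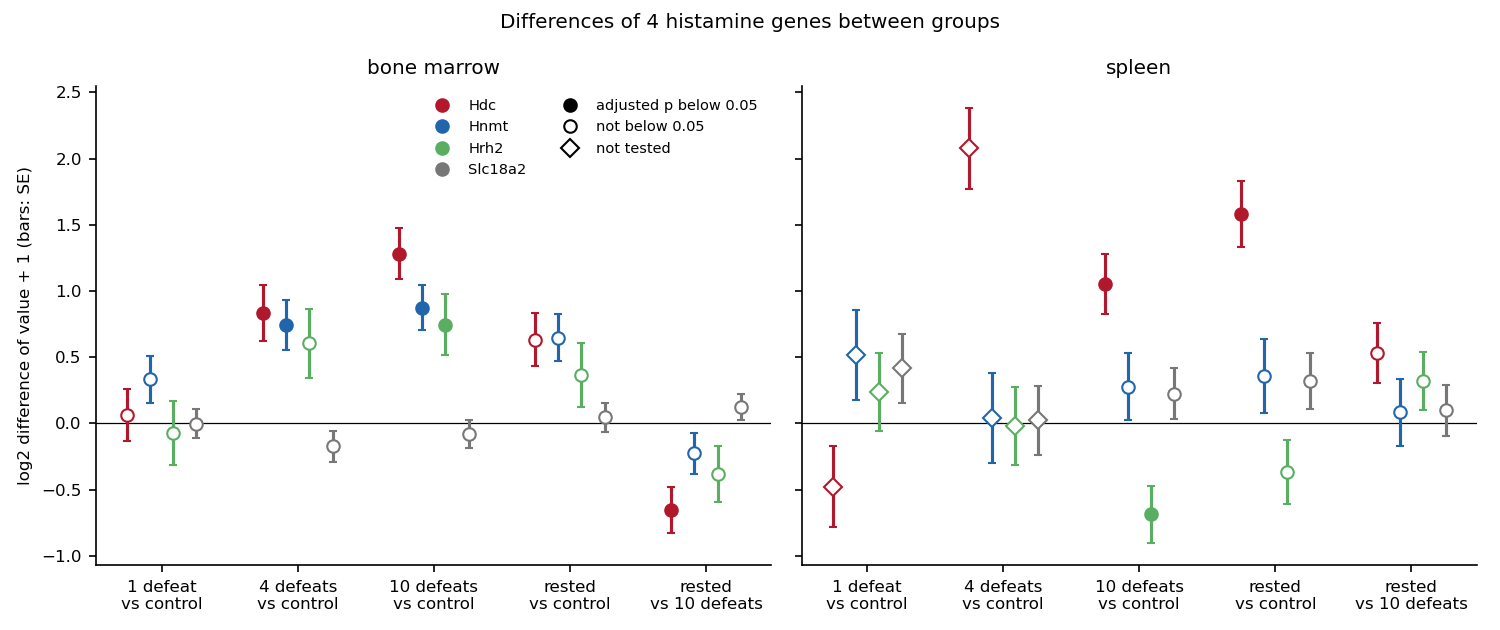
Log2 differences of value + 1 (points) with standard errors (bars) for Hdc, Hnmt, Hrh2 and Slc18a2 in 5 comparisons per tissue; filled circles passed an adjusted p of 0.05 and diamonds mark the early spleen comparisons, which are not tested. Hdc stands at 1.28 in marrow and 1.05 in spleen after 10 defeats, while Hrh2 stands at 0.75 and -0.69.

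Hdc was set beside 20 mature neutrophil genes and 12 genes of the early granules, which are made by neutrophil precursors. In marrow, 11 of the 20 mature genes were higher after 4 defeats (median 0.75) and 19 after 10 defeats (median 1.28, beside -0.13 over all genes and 1.28 for Hdc). Of the early granule genes 11 of 12 were higher at both times, with medians of 1.07 and 0.88. Shares over all genes were 7.07% and 17.5% called higher, and 20% and 45.8% in either direction. S100a8, a subunit of calprotectin, rose by 1.37 ± 0.30 and 1.44 ± 0.27 (adjusted p = 0.00684 and 0.000727), S100a9, its partner, by 1.18 ± 0.28 and 1.63 ± 0.25, and Ngp, a secondary granule protein, by 0.93 ± 0.27 and 1.26 ± 0.24. The granule enzymes Mpo, Elane and Prtn3 rose by 1.24 ± 0.24, 1.26 ± 0.26 and 1.99 ± 0.27 after 4 defeats. From 10 defeats to rest, 12 of the 20 mature genes fell and none rose (median -0.71, beside 0.09 over all genes). Lymphocyte genes were lower where the neutrophil genes were higher: 7 of 10 B cell genes fell after 4 defeats (median -2.11) and 10 of 10 after 10 (median -2.85), and 10 and 8 of 10 T cell genes (medians -1.16 and -1.07), and the part of this shift in the Hdc values was not tested. The summed level of the B cell genes was 832 to 1188 in marrow controls and 18.9 to 249 after 10 defeats, and that of the T cell genes 82.9 to 95.6 and 18.3 to 47.8.

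Hdc and the neutrophil genes also went together from library to library in marrow. Among the 3 libraries of 4 defeats, D12 was highest for Hdc (119) and for S100a8 (70188), D14 came next (92.7 and 49768) and D11 was lowest (74.1 and 35417). Once-defeated library D17, highest of its group for Hdc at 66.7, was also highest for S100a8 at 43827 against 19058 to 23153. Over all 19 marrow libraries, log2 Hdc followed the mean of the mature neutrophil genes with Pearson r = 0.98 and Spearman rho = 0.95 (permutation test with 100000 resamples, p = 1e-05, the smallest it can give; adjusted p = 4e-05 over 8 relations). Without the 2 libraries farthest from the median, D12 and D6, r was 0.98, and r of deviations from group means was 0.94 (permutation, adjusted p = 0.00032). For the early granule genes r was 0.85 and rho 0.89 (adjusted p = 4e-05), 0.82 without 2 libraries and 0.82 for deviations from group means. Monocyte genes went with Hdc as well, with a median r of 0.77 over 10 genes, 8 of them above 0, and 0.96 for Ly6c2, a surface antigen of monocytes that was chosen after its value was seen. These values share library and depth and do not tell which cells carried Hdc.

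In spleen the mature neutrophil genes were higher after 4 defeats by a median of 2.89 (not tested), by 2.89 after 10 defeats (16 of 20 called higher, none lower) and by 3.75 after rest (15 of 20). The early granule genes had medians of 0.61 (not tested), 3.30 and 4.17, with 8 and 7 of 12 called higher in the last 2. Shares over all genes were 16.8% higher and 41.9% lower after 10 defeats, and 7.26% in either direction after rest. Hdc stood at 2.08, 1.05 and 1.58 in the same comparisons. Without the 5 libraries of steep slope the mature genes had medians of 1.69 after 10 defeats (10 of 20 called higher) and 3.38 after rest (17 of 20), and the early granule genes 1.98 (7 of 12) and 3.92 (8 of 12). S100a8 was at 71.7 to 163 in spleen controls, at 2309 and 785 after 4 defeats, and at 365 to 32417 (median 6740) after 10 defeats. Library D5 held the highest Hdc of the 10-defeat group, 5.94, with S100a8 at 893. Library D4, like D5 without the steep slope, held Hdc at 2.76 with S100a8 at 365. In the steep libraries D6, D10, D9 and D7 of that group Hdc was at 4.39, 4.09, 3.32 and 2.89. Their S100a8 values were 32417, 10469, 9974 and 3505, in the same order. Beside this, 10 of 10 B cell genes and 9 of 10 T cell genes fell in spleen after 10 defeats (medians -2.14 and -2.23), and 4 and 8 of 10 without the libraries of steep slope (medians -0.81 and -0.92).

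Spleen libraries fell into 2 sets, controls and 1 defeat against the rest, so relations were read within the set of 10 defeats and rest. Over those 10 libraries r of Hdc with the mature neutrophil genes was 0.47 and rho 0.55 (permutation test with 100000 resamples, p = 0.171, adjusted p = 0.440), and with the early granule genes r was 0.40 and rho 0.49 (permutation, p = 0.252). Deviations from group means over all 18 libraries gave 0.41 for the mature genes (permutation, adjusted p = 0.290). No relation passed the test within the later spleen groups at this number of libraries, which mix both kinds of length slope. In steep libraries D7, D9, D10, D6 and D2 the mature gene mean was 5.31, 6.06, 6.21, 7.28 and 7.36. Their log2 Hdc was 1.96, 2.11, 2.35, 2.43 and 2.83. In D4, D5, D3, D8 and D1 the mean was 3.86, 4.74, 5.47, 5.62 and 6.63. Log2 Hdc there was 1.91, 2.795, 2.63, 2.34 and 3.36. A relation within either kind alone was not tested.

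**Figure D3:**
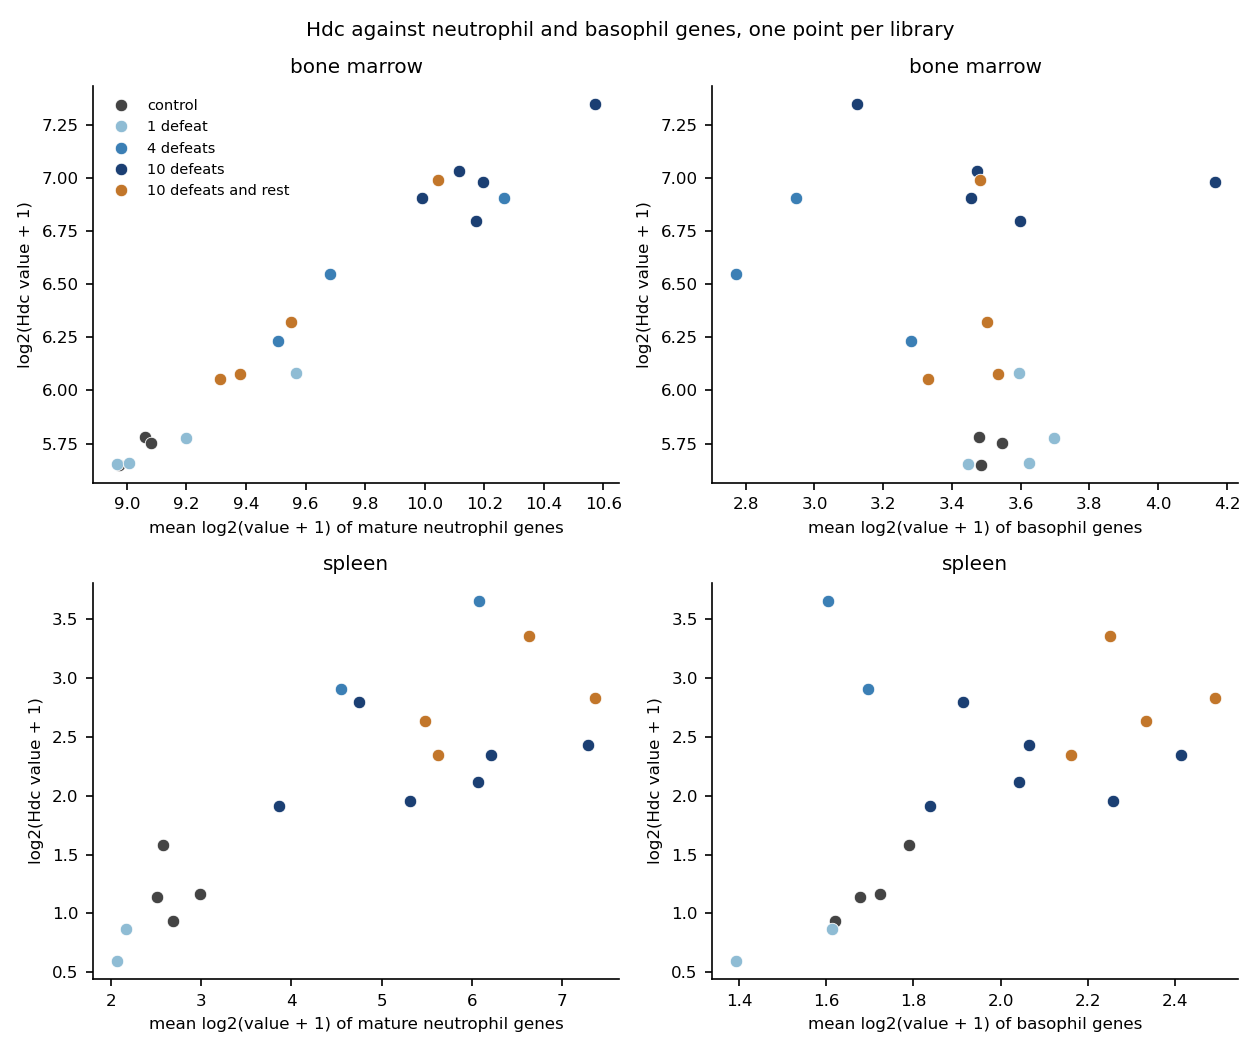
Log2(Hdc value + 1) against the mean log2(value + 1) of mature neutrophil genes (left) and basophil genes (right), 1 point per library, in marrow (top) and spleen (bottom). In marrow the points form a line with the neutrophil genes (r = 0.98) and none with the basophil genes (r = -0.19); in spleen the controls and 1-defeat libraries lie apart from the rest.

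Basophil genes took another course than Hdc in marrow after 4 defeats, whereas in the later spleen groups the basophil proteases and Hdc were both higher than in controls. Mcpt8, a granule protease of basophils, was at 102, 94.4 and 91.5 in marrow controls and at 72.8, 40.2 and 35.4 after 4 defeats, when Hdc was highest in the 2 libraries with the lowest Mcpt8. Mcpt8 fell by 1.01 (-1.01 ± 0.27, adjusted p = 0.0158) and Prss34, another basophil protease, fell by 1.07 (-1.07 ± 0.24, adjusted p = 0.00818). After 10 defeats, where the mean of Hdc was highest, their differences from control were 0.19 ± 0.24 and 0.06 ± 0.22 (adjusted p = 0.524 and 0.834).

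Of the 10 basophil genes in marrow 1 was higher and 4 lower after 4 defeats (median -0.50) and 2 higher and 1 lower after 10 defeats (median -0.00). Shares over all genes were 7.07% and 17.5% called higher, and 20% and 45.8% in either direction. Il3ra, the interleukin 3 receptor that other myeloid cells also carry, was the 1 that rose after 4 defeats (0.50 ± 0.14, chosen after its value was seen); it rose again after 10 (0.58 ± 0.12) with the chemokine Ccl3 (1.15 ± 0.44), and Alox15, a lipoxygenase also made by eosinophils, was the 1 that fell after 10 (-1.23 ± 0.34). Of 7 genes shared by basophils and mast cells, 4 fell at each time and 0 and 1 rose (medians -0.75 and -0.60): Cpa3, a granule carboxypeptidase, was at -0.77 ± 0.22 after 4 defeats (called) and -0.24 ± 0.20 after 10 (not called), and Gata2, a transcription factor of both lineages, at -0.86 ± 0.19 and -0.74 ± 0.17 (both called), with Ms4a2, a chain of the IgE receptor, at -0.75 ± 0.22 and -0.60 ± 0.20 (both called). The summed level of the basophil list was 295 to 316 in marrow controls, 142 to 247 after 4 defeats and 218 to 404 after 10.

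Over the 19 marrow libraries Hdc had r = -0.19 and rho = -0.28 with the basophil genes (permutation test, adjusted p = 0.455 and 0.252), and -0.50 without libraries D10 and D14. With the genes shared by basophils and mast cells r was -0.69 and rho -0.74 (permutation, adjusted p = 0.00216 and 0.00106), -0.56 without 2 libraries and -0.45 for deviations from group means (permutation, adjusted p = 0.163). Mast cells could also hold Hdc, and their defining markers were nearly absent from marrow. There 8 of 10 mast cell genes stayed below 1 in every library, and Tpsab1 and Mrgprb2 were listed at 0 in all 19. In spleen 4 of the 10 stayed below 1, while Cma1 ran from 0.558 to 2.79 and reached 1 in 12 libraries. The mean log2 level of the 5 mast cell genes tested in spleen was 1.33 in controls, 1.27 after 10 defeats and 1.60 after rest. This mean and its relation to Hdc were not tested. In marrow Kit, which stem cells share, was at -0.33 ± 0.17 after 4 defeats (not called) and -0.37 ± 0.15 after 10 (called lower).

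In spleen the basophil proteases were called higher after 10 defeats and after rest, as was Hdc. Mcpt8 was at 0.267 to 0.637 in controls, 1.55 and 1.24 after 4 defeats and 1.96 to 20.2 (median 16.5) after 10 defeats. Mcpt8 was higher by 3.07 ± 0.48 after 10 defeats and 2.72 ± 0.53 after rest (adjusted p = 0.000292 and 0.00902), and Prss34, chosen after its values were seen, by 2.60 ± 0.31 and 2.86 ± 0.34. Csf1, a macrophage growth factor on the basophil list, fell by 1.84 (-1.84 ± 0.41) and Il3ra by 0.68 (-0.68 ± 0.22) after 10 defeats. In all, 2 basophil genes were higher and 2 lower of 9 tested, and after rest 3 were higher and none lower. Shares over all genes were 16.8% higher and 41.9% lower after 10 defeats, and 7.26% in either direction after rest. Without the libraries of steep slope Mcpt8 was at 1.84 ± 0.35 and Prss34 at 1.93 ± 0.31 after 10 defeats (both called), while Csf1 (-0.76 ± 0.26, adjusted p = 0.0509) and Il3ra (-0.67 ± 0.25, adjusted p = 0.0688) lost their calls, leaving 2 higher and none lower of 8 tested, and 3 higher and 1 lower after rest. After 4 defeats, the comparison that chose Hdc, the median of the basophil genes was -0.15 and that of the genes shared with mast cells was 0.19. Neither was tested, and no relation to Hdc is drawn from them. Of those 7 shared genes 3 were higher and 2 lower after 10 defeats (median 0.33) and 1 was higher after rest (median 0.29), and without the libraries of steep slope 2 were higher and 1 lower, and 2 higher.

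Over the 10 spleen libraries of 10 defeats and rest, r of Hdc with the basophil genes was 0.34 (permutation, p = 0.330) and with the shared genes -0.23 (permutation, p = 0.530). Of 9 eosinophil genes 5 fell in marrow after 10 defeats (median -0.88), with Prg2, the major basic protein, at -1.05 ± 0.36. In spleen 5 of 9 rose after rest (median 1.29), with Prg2 at 3.48 ± 0.54, and 4 rose and 1 fell after 10 defeats. Without the libraries of steep slope 5 of 8 were called higher after rest, with Prg2 at 2.97 ± 0.29, and 1 after 10 defeats. Of 10 monocyte genes 7 rose in marrow after 10 defeats (median 0.76) and 2 rose and 5 fell in spleen (median -0.49), and without those libraries 1 of 9 rose and 2 fell. Shares over all genes after 10 defeats were 17.5% higher and 45.8% in either direction in marrow, and 16.8% higher and 41.9% lower in spleen. After rest 7.26% of all genes were called in spleen. The part of any of these cell types in the Hdc values was not tested.

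**Figure D4:**
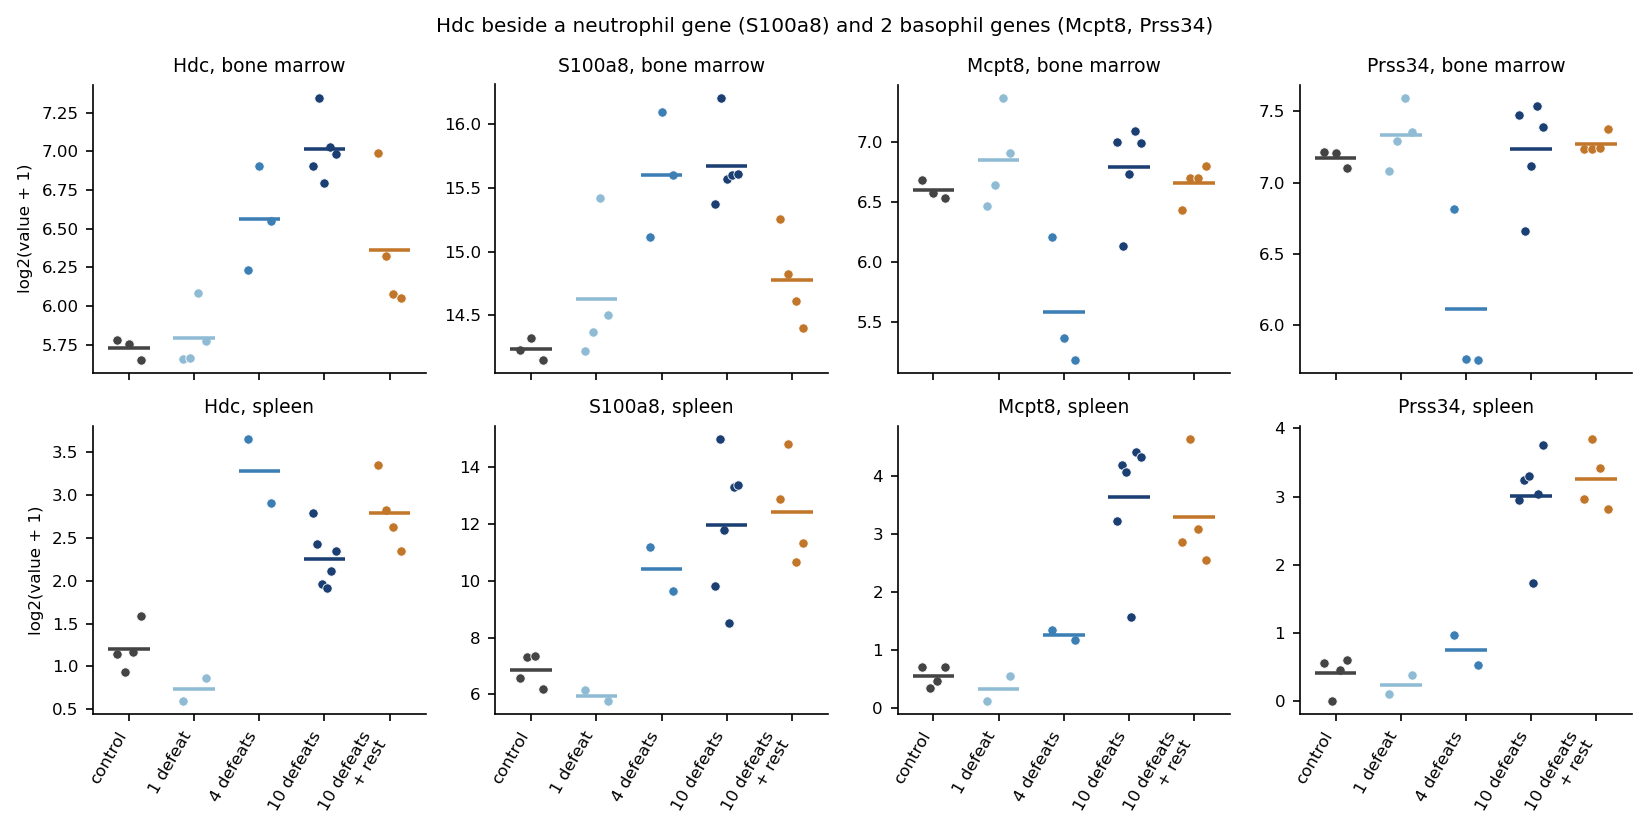
Log2(value + 1) of Hdc, the neutrophil gene S100a8 and the basophil genes Mcpt8 and Prss34 by group (points are libraries, lines are means; axes differ in range). In marrow after 4 defeats Hdc and S100a8 are high while Mcpt8 is at 35.4 to 72.8 on the linear scale. In spleen Mcpt8 is at 1.24 and 1.55 after 4 defeats, in the libraries whose Hdc values chose the gene.

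**Figure D5:**
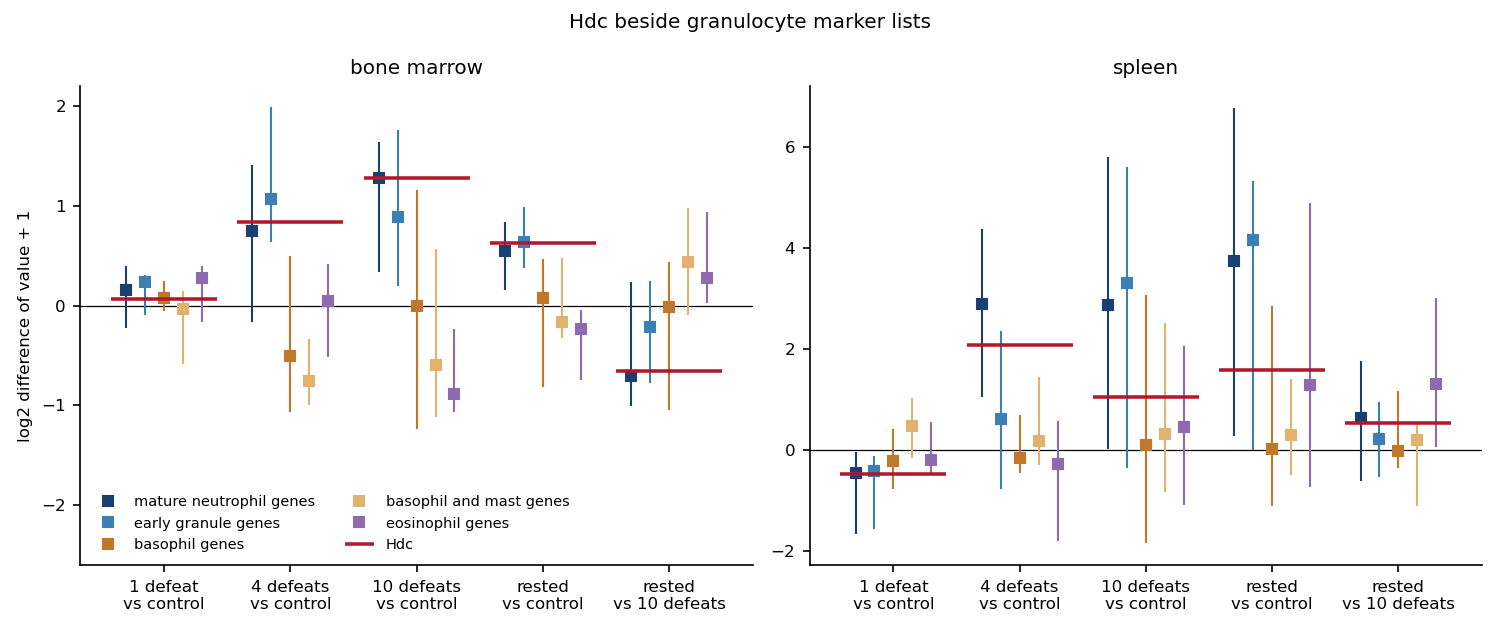
Log2 differences of Hdc (red lines) beside the medians (squares) and ranges (vertical lines) of 5 granulocyte marker lists in each comparison (the axes of the tissues differ in range). In marrow Hdc lies at the median of the mature neutrophil genes after 10 defeats (both 1.28), and in spleen it lies below that median after 10 defeats and rest. At 4 defeats in spleen (2.08 beside 2.89) the values chose Hdc and are not tested.

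As a description, genes with a marrow pattern most like that of Hdc over 19 libraries, among 9861 compared, included Clec4e (r = 0.98), a C-type lectin receptor for microbial glycolipids, Ralb (0.98), a small GTPase, Nfil3 (0.98), a leucine zipper transcription factor, and Ppp1r3d (0.98). The single mature neutrophil genes had r from 0.39 to 0.98 with a median of 0.91, and all 20 were above 0, as were 45.7% of all genes. In spleen the nearest were Mmp8 (0.92), Lcn2 (0.91), Slc16a3 (0.90), a lactate transporter, Cd177 (0.89), a neutrophil surface protein, and Pi16 (0.87), of 10531 genes. Mmp8 and Lcn2 are among the 6 genes of the early spleen contrast that chose Hdc, and r of deviations from group means was 0.47 and 0.58 for the 2.

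Slc18a2, the transporter that loads histamine and other amines into vesicles, did not pass the test in any of the marrow comparisons or the later spleen comparisons. Its marrow values were 2.37, 2.79 and 3.09 in controls, and ranged from 1.88 to 3.03 over the libraries of 1, 4 and 10 defeats and from 2.73 to 2.93 after rest. After 10 defeats it was at -0.08 ± 0.10 in marrow (adjusted p = 0.556) beside 1.28 for Hdc. In spleen its values were 0.577, 0.903, 0.579 and 0.728 in controls, 1.03 and 1.51 after 1 defeat, 0.702 and 0.737 after 4 defeats, and 0.651 to 1.74 (median 0.942) after 10 defeats. The highest, 2.45, was rested library D2, which has the steep slope. The 2 libraries after 1 defeat lay above all controls and both libraries after 4 defeats, and the groups of 10 defeats and rest overlapped the controls. The difference after 10 defeats was 0.22 ± 0.19 (adjusted p = 0.324). Slc18a2 was called lower in marrow after 4 defeats with library weights (-0.27, adjusted p = 0.0471), and higher in spleen after 10 defeats with library weights (0.28, adjusted p = 0.0475) and quantile normalization (0.67, adjusted p = 0.0386).

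Hnmt, the methylating enzyme that inactivates histamine inside cells, rose in marrow with Hdc. Its values were 3.36, 3.46 and 4.12 in controls, 4.36, 3.49, 6.95 and 5.10 after 1 defeat, and 5.98, 7.05 and 7.37 after 4 defeats. After 10 defeats they were 7.69, 7.77, 7.45, 6.78 and 7.85, and after rest 8.08, 7.56, 5.66 and 4.37. All libraries after 4 or 10 defeats or rest lay above all controls, and the rested group overlapped each stressed group. The differences from control were 0.33 ± 0.18 after 1 defeat (adjusted p = 0.904), 0.75 ± 0.19 after 4 defeats (adjusted p = 0.0135), 0.87 ± 0.17 after 10 defeats (adjusted p = 0.000927) and 0.65 ± 0.18 after rest (adjusted p = 0.157). The call after 4 defeats was lost without library D12 (0.72, adjusted p = 0.0583) or D14 (0.69, adjusted p = 0.0502). Hnmt also exceeded 1 defeat after 10 defeats (0.54 ± 0.16, adjusted p = 0.0119), and its step from 10 defeats to rest was -0.23 ± 0.16 (adjusted p = 0.294).

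In spleen Hnmt was at 1.06, 2.29, 1.04 and 1.04 in controls, 1.54 and 3.25 after 1 defeat, 1.75 and 1.04 after 4 defeats and 0.805 to 3.42 (median 1.84) after 10 defeats. The groups overlapped, and neither 10 defeats (0.28 ± 0.25, adjusted p = 0.355) nor rest (0.36 ± 0.28, adjusted p = 0.374) was called. The sign at 10 defeats turned without the libraries of steep slope (-0.21) and after removal of length and GC trends (-0.22). Genes with the marrow pattern nearest to Hnmt were Lcp2 (r = 0.91), a signalling adaptor of blood cells, Tnfrsf1a (0.91), a receptor for tumour necrosis factor, and Sephs2 (0.90), and in spleen Cep19 (0.90), Mfsd14b (0.87) and Tmem167 (0.85).

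Hrh1, the H1 receptor, was below 1 in all 37 libraries and was not tested. It was at 0.0268 to 0.205 in 18 of the 19 marrow libraries and listed at 0 in 1 of the 10-defeat group. In spleen it was at 0.577, 0.166, 0.764 and 0.781 in controls and 0.0785 to 0.530 (median 0.279) after 10 defeats, with 0.356 and 0.928 after 4 defeats and 0.319 to 0.575 after rest. Groups overlapped in both tissues, and the estimated reads behind a value ran from 0 to 127.

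Hrh2, the H2 receptor, rose in marrow and was lower in spleen after 10 defeats. Its marrow values were 3.89, 4.85 and 4.81 in controls, 4.22, 3.14, 4.91 and 4.83 after 1 defeat, and 4.40, 10.6 and 8.28 after 4 defeats. After 10 defeats they were 7.21, 8.36, 9.08, 7.25 and 9.42, all above all controls and all 1-defeat libraries, and after rest 8.83, 7.54, 5.30 and 3.72, in overlap with both. The difference from control was 0.60 ± 0.26 after 4 defeats (adjusted p = 0.102), 0.75 ± 0.23 after 10 defeats (adjusted p = 0.0149) and 0.36 ± 0.24 after rest (adjusted p = 0.512). The value after 4 defeats passed under 5 of 14 alternatives: without library D11 (0.92, adjusted p = 0.0124), with library weights (0.65), quantile normalization (0.82) and median-ratio rescaling (0.72), and after removal of length and GC trends (0.72). That after 10 defeats was lost without control C1 (0.66, adjusted p = 0.0623) and with equal totals (0.70, adjusted p = 0.0574). In all, 2 of the 4 tested members were called higher in marrow after 4 defeats and 3 after 10 defeats, where 7.07% and 17.5% of all genes were.

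In spleen the values of Hrh2 were 2.79, 1.26, 1.89 and 2.83 in controls, 3.24 and 2.19 after 1 defeat and 2.24 and 1.92 after 4 defeats. After 10 defeats they were 1.46 and 1.96 in libraries D5 and D4 and 0.588 to 0.688 in the 4 libraries of steep slope, and after rest 1.72, 1.80 and 1.60, with 0.730 in steep library D2. All 5 steep libraries lay below every other spleen library. The difference after 10 defeats was -0.69 ± 0.22 (adjusted p = 0.0139), and without the steep libraries it was -0.21 ± 0.22 (adjusted p = 0.494). The call was also lost with quantile normalization (-0.24), median-ratio rescaling (-0.43), removal of the length and GC trends (-0.28), and without control C1 (-0.59) or C4 (-0.59). The effect of 10 defeats on Hrh2 differed between tissues by -1.43 ± 0.33 (spleen minus marrow, adjusted p = 0.000938; 43.1% of genes called), and without the steep libraries by -0.95 ± 0.34 (adjusted p = 0.0331). Genes nearest to Hrh2 in pattern were Kif3b (r = 0.97), a kinesin motor, Myo1f (0.96), a myosin of white blood cells, and Igsf6 (0.95) in marrow, and Dlg3 (0.96), Riox2 (0.95) and Fhip2a (0.95) in spleen.

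Among the members, Hdc, Hnmt and Hrh2 varied together in marrow. Over its 19 libraries r was 0.86 between Hdc and Hnmt, 0.87 between Hdc and Hrh2 and 0.85 between Hnmt and Hrh2, and 0.65, 0.71 and 0.77 for deviations from group means. Such values were not particular to these genes, as the mature neutrophil genes had a median r of 0.91 with Hdc. Of all genes compared in marrow, 45.7% had r above 0 with Hdc. Slc18a2 had r of -0.26, -0.30 and -0.24 with Hdc, Hnmt and Hrh2. Over the 18 spleen libraries the same pairs gave 0.03, -0.32 and -0.49, while Hnmt and Slc18a2 went together at 0.71 and Hrh1 and Hrh2 at 0.68. These are descriptions over libraries that share depth and, in spleen, the length slope.

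Other genes that make, move or clear histamine and its products were mostly low: of 15, 6 were tested in marrow and 9 in spleen. Aoc1, the extracellular diamine oxidase, was at most 0.0706 in all marrow libraries and at 0.519 to 1.01 in spleen controls. Hrh3 was listed at 0 in every marrow library, and Hrh4, the receptor of white blood cells, was below 1 in both tissues (mean 0.305 in marrow). In marrow 1 of 6 rose after 4 defeats, where 20% of all genes were called, and 2 rose and 2 fell after 10 defeats, where 45.8% were. Aldh2, a mitochondrial aldehyde dehydrogenase, rose by 0.61 ± 0.19 and 0.72 ± 0.17 (adjusted p = 0.0312 and 0.00300), and Hal, which removes the amino group of histidine and so competes for the same substrate, rose by 0.88 ± 0.19 after 10 defeats (adjusted p = 0.00154).

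In the other direction, Slc22a3, a transporter that carries histamine across the cell membrane, fell by 0.62 (-0.62 ± 0.14, adjusted p = 0.00256) in marrow after 10 defeats and Aldh7a1 fell by 0.49 (-0.49 ± 0.13, adjusted p = 0.00532). Both rose from 10 defeats to rest, Slc22a3 by 0.55 ± 0.13 and Aldh7a1 by 0.52 ± 0.11, so that Slc22a3 ran 2.21 ± 0.396 in controls, 1.10 ± 0.400 after 10 defeats and 2.04 ± 0.180 after rest (mean ± SD, n = 3, 5 and 4). In spleen after 10 defeats, where 16.8% of all genes were called higher and 41.9% lower, 1 of 9 rose, Aldh9a1 (0.65 ± 0.13), and 3 fell: Aldh2 (-1.25 ± 0.32), Slc15a4, an endosomal transporter of histidine and peptides (-1.47 ± 0.30), and Slc29a4, a plasma membrane monoamine transporter (-1.09 ± 0.30). Without the libraries of steep slope the falls of Aldh2 (-0.43 ± 0.20, adjusted p = 0.125) and Slc29a4 (-0.38 ± 0.23, adjusted p = 0.237) were not called, while Aldh9a1 (0.49 ± 0.15, adjusted p = 0.0332) and Slc15a4 (-0.84 ± 0.25, adjusted p = 0.0319) were. The values of Aldh2 were 410.1 to 466 in marrow controls against 595 to 891 after 10 defeats, and at 192 to 223 in spleen controls against 46.7 to 186. Maoa, an amine oxidase, was at -0.17 ± 0.13 in spleen (not called). None of the 9 was called after rest.

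Receptors and signalling genes through which basophils, mast cells and other myeloid cells are activated were called in both directions. Of 11, 3 rose and 1 fell in marrow after 4 defeats (20% of all genes called), and 5 rose and 3 fell after 10 defeats (median 0.34; 45.8% called). Fcer1g, the signalling chain of several Fc receptors, rose by 0.61 ± 0.19 and 1.20 ± 0.17, and fell by 0.70 (-0.70 ± 0.15) from 10 defeats to rest. Csf3r, the receptor for granulocyte colony-stimulating factor, was at 0.34 ± 0.24 and Csf2ra at 0.20 ± 0.26 after 10 defeats (neither called). In spleen 1 rose and 7 fell after 10 defeats (median -0.68, beside -0.36 over all genes, of which 41.9% were called lower), with Syk at -1.94 ± 0.44 and Lyn, another Fc receptor kinase, at -1.23 ± 0.28. The 1 that rose was Il1rl1, the interleukin 33 receptor, at 2.52 ± 0.28, chosen after its value was seen; in marrow it fell after 10 defeats (-1.11 ± 0.23). Without the libraries of steep slope 1 of the 11 rose and 3 fell (median -0.40), with Syk at -0.77 ± 0.21, Lyn at -0.55 ± 0.18 and Il1rl1 at 2.10 ± 0.26, all called.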

How the data were processed

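Polyadenylated RNA of femoral marrow and spleen was sequenced as TruSeq stranded libraries, per the labels' protocols. The authors deposited 1 signal value for each gene in each library, treated here as a scaled abundance. The submitters' processing notes name kallisto 0.46.1, sleuth and GRCm38, without roles; which quantity was exported and how it was scaled is not stated in the sources used here. A count test was planned only for the case that the values were counts. They are not, so limma was used as planned. The labels name groups and replicates, and the series text calls the replicates biological. Column totals ran from 657918 to 2652290.

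The 5 groups of a tissue were fitted together with limma 3.58.1 in R 4.3.3 on log2(value + 1), with a trended and robust variance prior, for genes that reached 1 in 3 marrow or 2 spleen libraries (12442 and 13945 genes), and all 37 libraries for differences between tissues (2 libraries, 14513 genes). Benjamini-Hochberg adjustment ran over all genes tested, and calls had an adjusted p under 0.05. The test was tried on simulated data. Spleen comparisons of 1 or 4 defeats with control are described only.

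Members and gene lists were chosen with earlier results of these data known. Named genes were all members, other histamine genes with a group mean of at least 1, the 3 most abundant genes of each list in a tissue, and the genes with the highest r (5 for Hdc, 3 for others, mean value of at least 2); 1 of those for Hdc in marrow is not reported here. Alternatives were quantile, equal-total and median-ratio scaling, removal of length and GC trends, no filter, a pseudocount of 0.1, library weights, fits of the compared groups, leaving out each replicate or the 5 libraries of steep slope, and a replicate block; spleen lists and tissue differences without the steep libraries, and relations without them or within 10 defeats and rest, were added after seeing the data. Gene models came from GENCODE M21, which held 35629 of 35885 identifiers (99.3%), and promoter sequences from RefSeq on GRCm38.p6 for all 5 members.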

Additional observations from a re-analysis of the deposited data

Results flagged for a closer look

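Of 30 gene and group combinations with 4 to 6 libraries checked for the members, 2 held a library far from the others, where chance flags about 1 in 20. Hnmt in spleen control C2 was at 2.29 against 1.04 to 1.06 in the other 3 controls. Hrh2 in rested spleen library D2 was at 0.730 against 1.60 to 1.80, and D2 is 1 of the 5 libraries with a steep length slope.

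The effects of stress differed between tissues for 2 members by a limma interaction test. For Hrh2 the effect of 10 defeats was lower in spleen than in marrow by -1.43 ± 0.33 (adjusted p = 0.000938), with values from -1.99 to -0.95 over 28 alternatives, all of them past the threshold. For Hdc the step from 10 defeats to rest was higher in spleen than in marrow by 1.18 ± 0.29 (adjusted p = 0.0109), with values from 0.86 to 1.39 over 29 alternatives, of which 26 stayed past the threshold.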

How the results depend on the processing

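Over 59 results and 934 alternative values, 840 counted as unchanged. For tested differences that meant the same direction and the same side of the threshold. For results without a test under the alternatives it meant a value within the spread of the main one, whatever its sign. Of the rest, 22 gained a call, 21 lost one, and 14 of those without a test moved by more than their spread. Among tested differences 37 values changed sign. The cause of these changes was not tested. With libraries rescaled to equal totals, Hdc lost its calls for rest against 10 defeats in marrow (-0.44), for 10 defeats (0.57) and rest (1.16) in spleen, and for the tissue difference of rest against 10 defeats (1.02), and signs changed for Hdc in marrow after 1 defeat (-0.03), for Hnmt in spleen after 10 defeats (-0.20) and rest (-0.0425) and for Slc18a2 there (-0.12 and -0.0231). Quantile normalization lost the tissue difference (0.86) and changed the sign of that after 10 defeats (0.46; 0.18 with a pseudocount of 0.1), of Hrh2 in marrow after 1 defeat (0.0289), of Slc18a2 in marrow after 1, 4 and 10 defeats (0.13, 0.13 and 0.23) and for rest against 10 defeats (-0.12), and of Hnmt (-0.15) and Slc18a2 (-0.10) in spleen for rest against 10 defeats. Median-ratio rescaling changed the sign of Slc18a2 in marrow after 1 (0.0518) and 10 defeats (0.0275), and of Hnmt (-0.0655) and Slc18a2 (-0.0082) in spleen for rest against 10 defeats. Library weights did so for Hdc (-0.0104) and Slc18a2 (0.0215) in marrow after 1 defeat and for Hnmt (-0.20) and Slc18a2 (-0.0610) in spleen for rest against 10 defeats, and removal of length and GC trends for Slc18a2 in marrow after 1 defeat (0.0189) and Hnmt in spleen after 10 defeats (-0.22) and rest (-0.0019). With only the compared groups the tissue difference of rest against 10 defeats stayed at 1.18 and lost its call. Without the 5 steep libraries Hnmt (-0.21) and Slc18a2 (-0.0213) changed sign in spleen after 10 defeats. The pooled r of Hdc with the mature neutrophil genes in spleen, 0.83 over 2 separate sets of libraries, was 0.47 within 10 defeats and rest, 0.94 without the steep libraries and 0.93 with quantile normalization. The pooled spleen r was 0.68 for the early granule, 0.53 for the basophil and 0.42 for the shared genes. For deviations from group means it was 0.39, 0.08 and 0.07. All pooled spleen values include the control and 4-defeat libraries that chose Hdc, so they are descriptions and support nothing.

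Leaving out 1 replicate at a time gave -0.0323 to 0.11 for Hdc, -0.16 to 0.0381 for Hrh2 and -0.0765 to 0.0636 for Slc18a2 in marrow after 1 defeat, 0.66 to 1.00 for Hdc in marrow after 4 defeats, -0.86 to -0.55 for Hdc in marrow for rest against 10 defeats, -0.0303 to 0.11 for Slc18a2 in marrow after rest, and -0.0435 to 0.22 for Hnmt and -0.14 to 0.22 for Slc18a2 in spleen for rest against 10 defeats; a lone remaining library was assumed to vary like the other groups. With the replicate block the tissue difference of Hdc for rest against 10 defeats was 1.18 (limma, adjusted p = 0.0101), and no call changed. Same-numbered libraries of the 2 tissues had r of -0.204 to 0.350 over 15 pairs, 5 of them over 0.1. Correlation between different tissues cannot settle whether equal numbers mark the same animal. The main fits left the samples unpaired, and the replicate block was the alternative that used the numbers.

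In spleen after 10 defeats the median of all genes was -0.36, and -0.89 with equal totals (5.85% higher, 50.9% lower), -0.01 with median-ratio rescaling (28% and 25.2%) and -0.06 with quantile normalization (23.5% and 27%). Depth limits Hrh1 and the low spleen values of Hdc most.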
